A study of Mus musculus with 2 samples.

Results

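Chemokines are small secreted or membrane-anchored proteins that steer leukocytes along a concentration gradient, and their receptors are G protein-coupled receptors of the leukocyte surface. In liver they are made by hepatocytes, macrophages, endothelial and stellate cells, and inflammatory members recruit monocytes, neutrophils and T cells into the tissue, while homeostatic members place lymphocytes and dendritic cells. The genes described here are those whose name on the array begins with Ccl, Cxcl, Xcl or Cx3cl (ligands) or with Ccr, Cxcr, Xcr or Cx3cr (receptors), followed by a digit. This gave 57 of the 31894 gene names on the array, 37 ligands and 20 receptors, read by 69 probes. Within this family the choice rests on names and not on a measured value. The family and the gene lists used below were chosen with earlier results of these data known.

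Total RNA of mouse liver was hybridized to Agilent arrays in 1 colour. Of the 2 arrays, 1 read the liver of a wild-type C57BL/6 mouse, and the other that of a C57BL/6 mouse of the genotype Alb-Cre;CAG-floxed neo-Snail. In the second mouse, Cre recombinase is driven by the hepatocyte promoter of albumin and, as the genotype name reads, acts on a floxed neo cassette between the CAG promoter and Snail, a zinc-finger repressor of transcription. The series title concerns steatohepatitis and liver tumours. Sex, age, diet and any tumour in the sample are not in the labels. A liver with Alb-Cre alone was not analysed here, so effects of Cre and of Snail cannot be told apart.

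With 1 array per group there is no replicate check, no test was run, and "higher" or "lower" states a difference between these 2 libraries. Levels are given as scaled signals, in percent of the 75th percentile of the array's non-control spots, a signal of 232.7 for wild-type and of 302.1 for the other array. A difference is log2 of the Snail scaled signal over the wild-type one, and its ± is the scanner software's error of the spots, which holds array noise only and no difference between animals. A probe was called detected on an array where the scanner software marked it as well above background, and a gene was called measured when a probe was detected on both arrays. The lowest scaled signal of a detected spot was 5.94% for wild-type and 4.27% for the library labelled Snail. A gene detected on 1 array is given a bound ("at least"), which takes no account of the scanner software's error and is no firm limit. The array labelled Snail had 54.0% of its non-control spots detected, against 50.7% for wild-type. The single Snai1 probe had signals of 23.2 and 22.3, a log2 difference of -0.44 ± 0.32. Whether it reads the transgene is not given in the sources used here, so it is no check of the labels, and the name used here for the second liver is the library labelled Snail. Hepatocyte markers were measured for all 8 genes of the list, among them albumin (Alb) at 97471% and 63154%. Of these markers 7 were below 0, with a median log2 difference of -0.43 and Tat 2.51-fold lower, and their part in the results below was not tested. In whole liver, fewer cells of a type and less RNA per cell cannot be told apart.

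The probes behind the 5 genes past 2-fold, and behind Ccl2, are shown by their first 30 bases, 5′ to 3′, because every value of these genes comes from 1 probe each. Positions are those of the whole probe in the array annotation (mm9). Whether a probe lies in coding sequence or in a UTR was not analysed here.
Cxcl10, chr5:92775781-92775840, minus strand: gctttgcattgtatatggaagaacttgtgt
Cx3cl1, chr8:97306185-97306244, plus strand: tcccagagcagaatgtgggccgtaacaatc
Ccr7, chr11:99005551-99005610, minus strand: cagccactgatacctttcctcatgttctgc
Ccl9, chr11:83388223-83388282, minus strand: caactaggatgaaataaattctgccttagc
Cxcl1, chr5:91321845-91321904, plus strand: agaagtgcagagagatagagtttagtatta
Ccl2, chr11:81850650-81850709, plus strand: tgtaggagtgaccagtgtgacagtgaacta

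Chemokine genes differed in both directions between the livers, and no single direction held for ligands or receptors. Of 19 measured ligands, Cxcl10 and Cx3cl1 were higher by 2-fold or more in the library labelled Snail, and Ccl9 and Cxcl1 lower by 2-fold or more. Those are 2 genes in each direction, or 10.5% of the measured ligands, where 3.96% of all 15467 measured genes were higher by that much and 6.34% lower. Of 4 receptors measured, Ccr7 was higher by 2-fold or more and 0 were lower by as much. With so few genes, 1 gene moves a share by several percent, and the shares are given as descriptions.

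**Figure D1:**
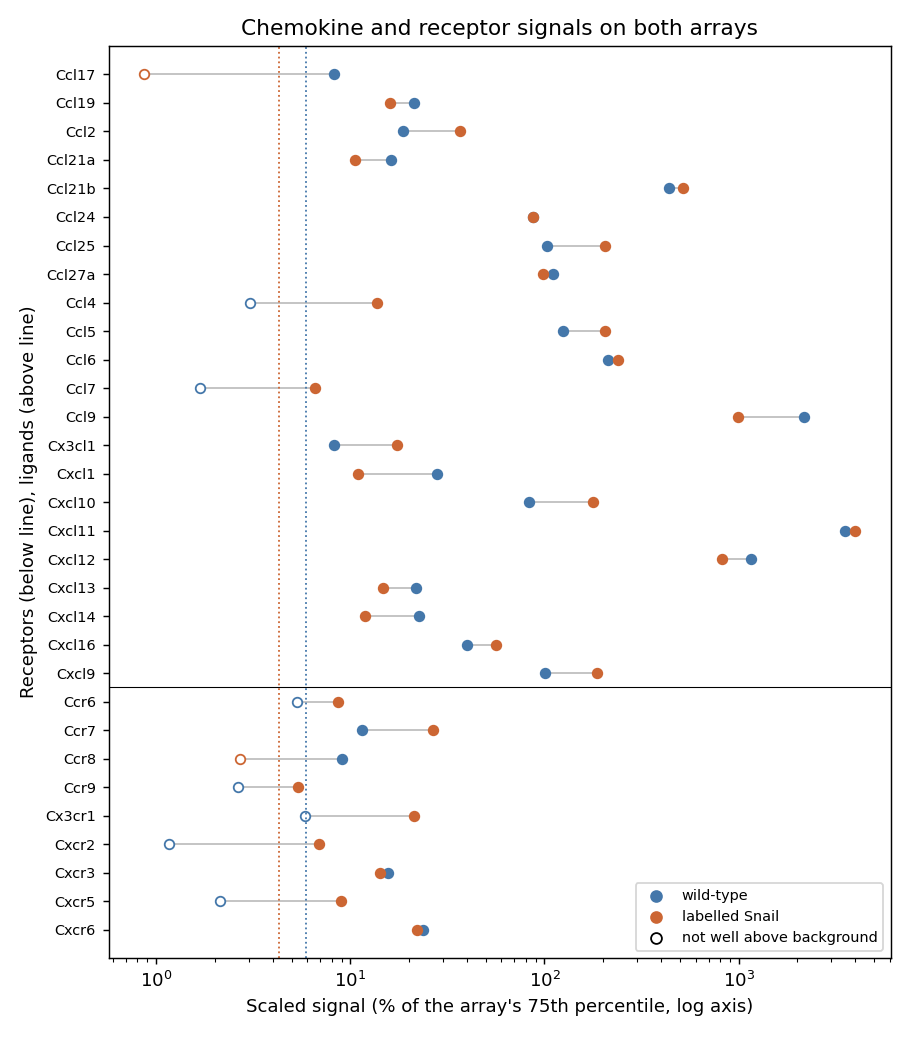
Scaled signal (percent of the array's 75th percentile, log axis) of 31 ligands and receptors detected on at least 1 array, wild-type in blue and labelled Snail in orange. Open points were not detected, the dotted lines mark the lowest detected signal of each array (5.94% and 4.27%), and probes of different genes are not to be ranked against each other. Ccl9 and Cxcl1 lie lower in the library labelled Snail, Cxcl10 and Ccr7 higher, and 7 genes have an open wild-type point only.

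Among the interferon-inducible ligands of Cxcr3, the receptor of activated T cells and NK cells, Cxcl10 and Cxcl9 were the higher ones. The scaled signal of Cxcl10 was 82.8% in the wild-type and 178.6% in the library labelled Snail, a log2 difference of 1.11 ± 0.21 or 2.16-fold. Cxcl9 stood at 100.6% and 187.3%, a difference of 0.90 ± 0.15 or 1.86-fold, below the 2-fold mark. Its 2 probes both gave a higher value, with log2 differences of 0.85 and 0.94. Both genes were thus brighter on the array labelled Snail, on probes at different places of chromosome 5.

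The third ligand of the group, Cxcl11, had a difference of 0.17 ± 0.14 over 2 probes. Its brighter probe, at chr5:92788567-92788626 (mm9, minus strand), had signals of 60613 and 80205 and a log2 difference of 0.03. It holds a 20-base run, in capitals below, that occurs 15 times in the promoter windows of RefSeq genes, and the whole probe shares a run of at least 20 bases with the windows of 21 other genes and with probes of 7 other gene names.
Cxcl11, bases 20 to 49 of the probe: agccaGGGCTACACAGAGAAACCCTatctt
No other probe among the 69 shared such a run with the windows of more than 1 other gene. The second Cxcl11 probe gave 478.1% and 595.6%, a log2 difference of 0.32, and this is the value of the gene without the first probe. Their receptor Cxcr3 was at 15.6% and 14.2%, a difference of -0.14 ± 0.26, smaller than its error.

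Among CC ligands of monocytes and T cells, Ccl2 and Ccl5 were higher and Ccl9 was lower. Ccl2, the main attractant of Ccr2-bearing monocytes, is printed 10 times on each array. Its spots lay between 16.1% and 21.5% on the wild-type array and between 33.2% and 40.9% on the array labelled Snail, so the sets of spots did not overlap. The mean difference was 0.97 ± 0.07, or 1.97-fold, just under the 2-fold mark. The spread was 0.15, the log2 SDs of the spots on each array combined as the root of their summed squares. Spots of 1 array are repeats of 1 RNA and not of the animal.

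**Figure D2:**
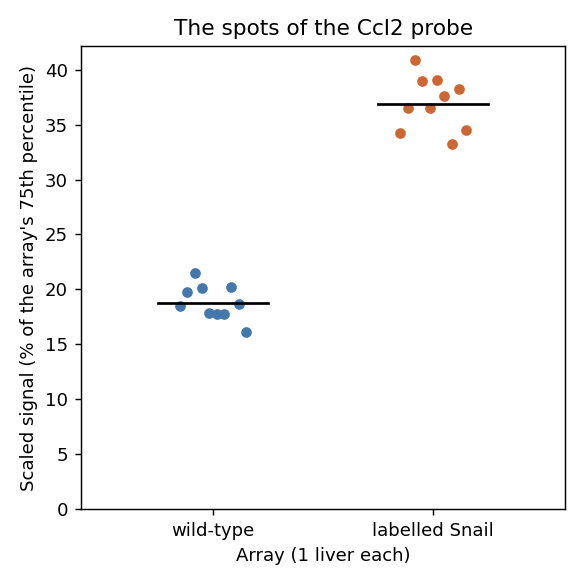
Scaled signal (percent of the array's 75th percentile) of the 10 Ccl2 spots on each array, with the mean on the log2 scale as a line. The spots labelled Snail lie between 33.2% and 40.9%, all above the wild-type spots at 16.1% to 21.5%.

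Ccl5, an attractant of T cells, was at 125.1% in wild-type liver and 206.2% in the library labelled Snail, a difference of 0.72 ± 0.20 or 1.65-fold. Ccl4, an attractant of monocytes and T cells, was detected in the library labelled Snail alone, at 13.8% against 3.05%, and was at least 2.32-fold higher. Ccl7, which shares Ccr2 with Ccl2, was likewise seen only there, at 6.58% against 1.69%, with a bound of at least 1.11-fold. Ccl3 was detected on neither array. Each of these genes was thus brighter on the array labelled Snail where it was seen.

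Ccl9, a mouse ligand of Ccr1 made by macrophages and other myeloid cells, went the other way. It was at 2182% in wild-type liver and 992.0% in the library labelled Snail, a difference of -1.14 ± 0.20 or 2.20-fold lower. Ccl6, a Ccr1 ligand encoded beside it, was at 211.3% and 239.9%, a difference of 0.18 ± 0.20, within its error. Ccl24, an eosinophil attractant through Ccr3, was at 86.9% and 87.0%, a difference of 0.00 ± 0.21.

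Cxcl1, a neutrophil attractant through Cxcr2, had the lowest log2 difference of the 23 measured ligands and receptors. It was at 27.9% in wild-type liver and 11.0% in the library labelled Snail, a difference of -1.34 ± 0.25 or 2.54-fold lower. Among the 37 ligands chosen by name, the other Cxcr2 ligands, Cxcl2, Cxcl3, Cxcl5 and Cxcl15, were detected on neither array. The platelet chemokine Ppbp, left out of that choice by its name, was detected in the library labelled Snail alone. It was at 14.1% there against 6.50%, with a bound of at least 2.17-fold higher. Cxcr2 itself was detected in the library labelled Snail alone, at 6.89% against 1.17%, with a bound of at least 1.16-fold. Of the neutrophil markers, S100a8 was 3.96-fold and S100a9 2.96-fold higher, and Ly6g had a difference of 0.92 ± 0.21. The other 3 measured markers differed by less than their errors, Elane at 0.10 ± 0.21, Csf3r at 0.02 ± 0.20 and Camp at -0.11 ± 0.18. Thus 5 of 6 measured markers of that list were above 0, and Ngp was detected on neither array. Their part in the result was not tested.

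Cx3cl1, a membrane-anchored ligand that is also shed, was the one homeostatic or dual ligand past 2-fold. It was at 8.24% and 17.3%, a difference of 1.07 ± 0.34 or 2.10-fold, at dim signals of 19.2 and 52.2. Its receptor Cx3cr1, a marker of patrolling monocytes and some macrophages, was read by 2 probes, of which 1 was detected, and only in the library labelled Snail. That probe stood at 21.4% against 5.82%, a bound of at least 3.60-fold higher. It shares a run of at least 20 bases with a probe of 1 other gene name, LOC100048875. The other Cx3cr1 probe was at 1.29% and 2.61% and was detected on neither array. Ligand and receptor were therefore both brighter in the library labelled Snail by the probes that gave a signal.

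Ccl25, which draws Ccr9-bearing lymphocytes to gut and liver, was at 103.6% and 205.5%, a difference of 0.99 ± 0.20 or 1.98-fold, just under 2-fold. Its receptor Ccr9 was detected in the library labelled Snail alone, at 5.35%, below the lowest wild-type level so called, so it has no fold. Cxcl16, a membrane-anchored ligand of Cxcr6, was at 39.7% and 56.3%, a difference of 0.51 ± 0.21. Cxcr6, found on liver-resident T and NKT cells, was at 23.7% and 22.0%, a difference of -0.11 ± 0.17. For both Ccl25 and Cxcl16 the ligand was higher, while the receptor gave no fold or a difference within its error.

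Several homeostatic ligands were lower. Cxcl14 was at 22.6% and 11.9%, a difference of -0.93 ± 0.25 or 1.91-fold lower. Cxcl12, the ligand of Cxcr4 that stromal cells make, was at 1153% and 825.8%, a difference of -0.48 ± 0.14, with its 2 probes at -0.55 and -0.41. Cxcl13, which organises B cell follicles through Cxcr5, was at 21.8% and 14.8%, a difference of -0.56 ± 0.25. Ccl17, a Ccr4 ligand of dendritic cells, was detected only in wild-type liver, at 8.20% against 0.867%, and was at least 1.92-fold lower. Ccl27a, a skin ligand of Ccr10 read by 4 probes, was at 110.2% and 98.1%, a difference of -0.17 ± 0.11. Markers of stellate cells, which in liver make Cxcl12, were lower in the same library. All 6 measured genes of the list were below 0, with a median of -0.82. Their scaled signals summed to 58.6 times the 75th percentile in wild-type liver and 30.9 times in the other. Most of each sum was Dcn, at 4963% and 2583%, and desmin (Des) was detected on neither array. Of 8 measured markers of sinusoidal endothelial cells, 4 were above 0 and 4 below, with a median of -0.04. The part of the stellate and endothelial markers in the result was not tested.

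The Ccr7 axis, which brings lymphocytes and mature dendritic cells together, divided into a higher receptor and ligands in both directions. Ccr7 was at 11.4% in wild-type liver and 26.7% in the library labelled Snail, a difference of 1.22 ± 0.28 or 2.33-fold, at dim signals of 26.6 and 80.7. Ccl19 was at 21.3% and 16.1%, a difference of -0.40 ± 0.17, and Ccl21a at 16.2% and 10.5%, a difference of -0.62 ± 0.27. Ccl21b was at 437.4% and 518.9%, a difference of 0.25 ± 0.20. The Ccl21a and Ccl21b probes share a run of 43 bases, of which the first 30 are shown, and the mouse Ccl21 genes are near-identical copies.
Ccl21a and Ccl21b, shared run: cccttgtccttgcacctatgatttatacct
The values of these 2 genes are therefore uncertain as values of either copy.

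**Figure D3:**
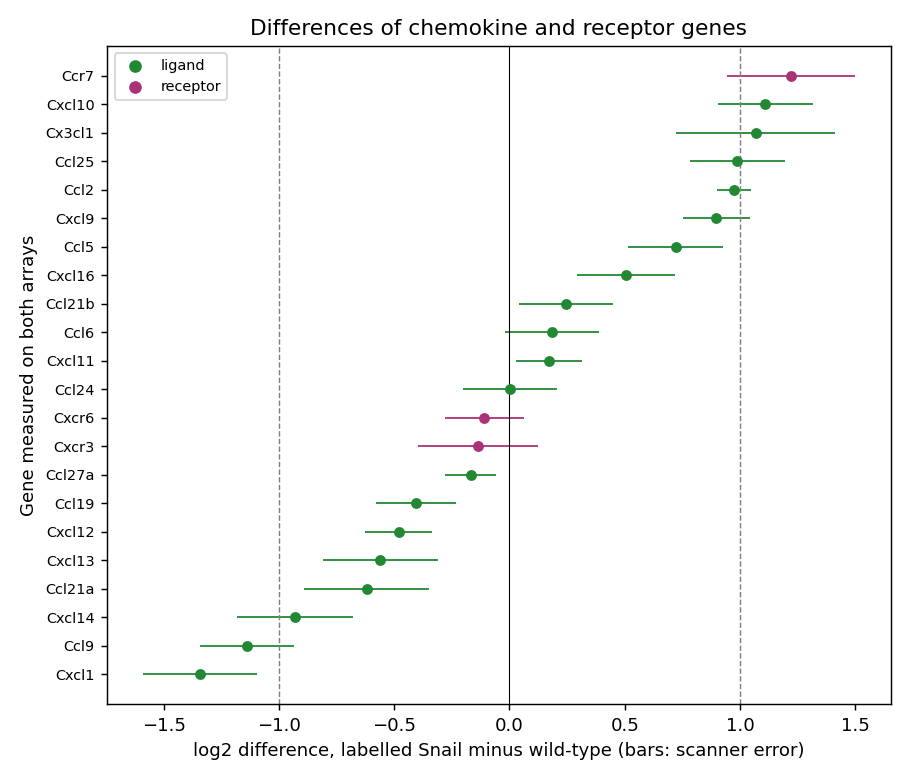
log2 difference of scaled signals, labelled Snail minus wild-type, for 19 ligands (green) and 3 receptors (purple) measured on both arrays, with the scanner software's error as bars and 2-fold as dashed lines. Values run from -1.34 (Cxcl1) to 1.22 (Ccr7), and 3 genes lie above the upper line and 2 below the lower one.

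Receptors were dimmer than the background call allowed in many cases, and the difference between the arrays showed mostly as detection. Of 20 receptors, 4 were measured on both arrays, 5 were detected in the library labelled Snail alone, 1 only in wild-type liver and 10 on neither. Over all gene names, 4.37% were seen only in the library labelled Snail and 1.45% only in wild-type liver. For ligands those counts were 2 and 1 of 37. The 15 ligands detected on neither array were Ccl1, Ccl3, Ccl8, Ccl11, Ccl12, Ccl20, Ccl22, Ccl26, Ccl28, Cxcl2, Cxcl3, Cxcl5, Cxcl15, Cxcl17 and Xcl1, with signals no higher than 12.1, that of Ccl3 in the library labelled Snail. The receptors seen only in the library labelled Snail were Cx3cr1, Cxcr5, Ccr6, Cxcr2 and Ccr9, and apart from Cx3cr1 their scaled signals there lay between 5.35% and 8.98%, close to the lowest levels called. Cxcr5, the B cell and follicular helper T cell receptor, had a bound of at least 1.51-fold, and Ccr6, found on B cells and on T helper cells that make interleukin 17, one of at least 1.46-fold.

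Ccr8, a receptor of regulatory T cells, was the receptor seen only in wild-type liver, at 9.09% against 2.70% and at least 2.13-fold lower, by 1 of its 2 probes. The other Ccr8 probe was detected on neither array. Ccr2, the receptor of Ccl2, had signals of 11.3 and 13.7 and was detected on neither array, as were Cxcr4, Cxcr7 (named Ackr3 in RefSeq), Ccr1, Ccr1l1, Ccr3, Ccr4, Ccr10, Cxcr1 and Xcr1. A signal below background sets no level, so these receptors may still be expressed below what the array could read.

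The median log2 difference was 0.17 for the 19 measured ligands and 0.15 for the 4 measured receptors, beside -0.03 over all genes measured. The ligand median was thus 0.03 above the receptor median, less than the scanner error of any of these genes. Counting genes seen on 1 array at their bounds gave medians of 0.16 for 22 ligands and 0.31 for 10 receptors. Ligands lay on either side of 0, with 11 above and 8 below. Of the ligands, 14 differed by more than 2 scanner errors, 7 in each direction, and of the receptors Ccr7 alone did. Of all measured genes, 16.6% were higher and 21.3% lower by more than 2 scanner errors. Inflammatory ligands had a median of 0.18 over 9 measured genes and homeostatic and dual ligands one of -0.29 over 10.

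**Figure D4:**
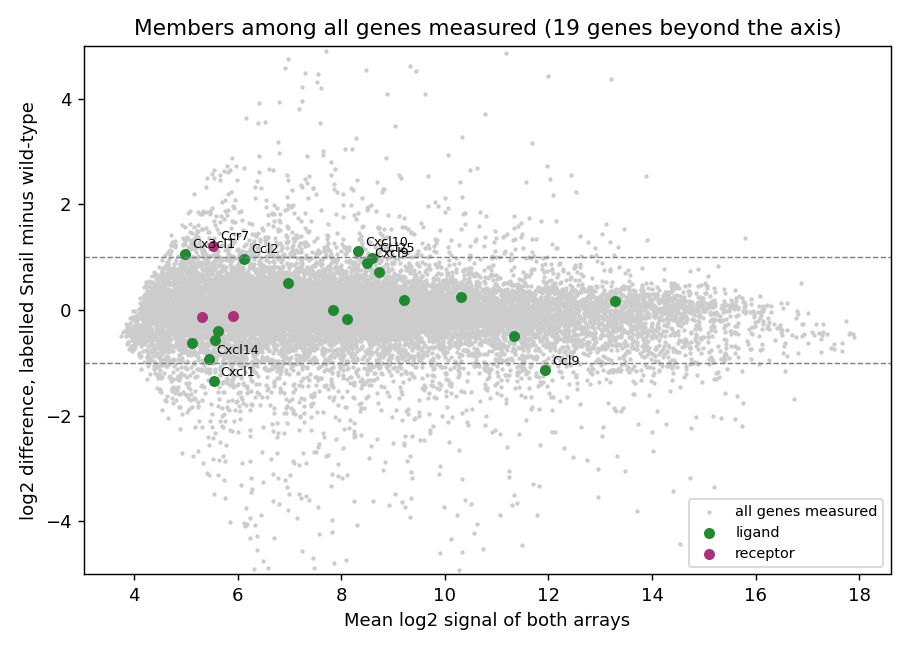
log2 difference, labelled Snail minus wild-type, against the mean log2 signal of both arrays for all 15467 genes measured (grey), with 19 ligands in green and 3 receptors in purple, 2-fold as dashed lines and 19 genes beyond the axis. Ccr7, Cx3cl1, Cxcl1 and Cxcl14 lie at dim signals, where grey points spread widely, and Ccl9 and Cxcl10 at brighter ones.

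Set side by side, 39 known ligand and receptor pairs had both genes on the array. Both members were measured in 8 pairs and detected on at least 1 array in 13. In 12 pairs the ligand alone was seen, such as Ccl2 without Ccr2 and Cxcl12 without Cxcr4. In 7 the receptor alone was seen, such as Ccr6 without its ligand Ccl20, and in 7 neither was.

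The values of dim genes depended on how background was handled. With normexp, a background correction that adds an offset of 50, Cxcl10 had a difference of 0.93, Cx3cl1 0.16, Ccr7 0.34 and Cxcl1 -0.74, all within 2-fold, while Ccl9 stayed lower at -1.05. Ccl2 was at 0.43 and Ccl25 at 0.90. The technical spread, combined from the SDs of the 2 arrays as for Ccl2, had a median of 0.10 over probes with at least 5 spots. The median was 0.22 for the 64 such probes with signals under 100. Among the 4780 measured genes with signals under 100, 5.06% were higher by 2-fold or more and 6.3% lower.

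**Figure D5:**
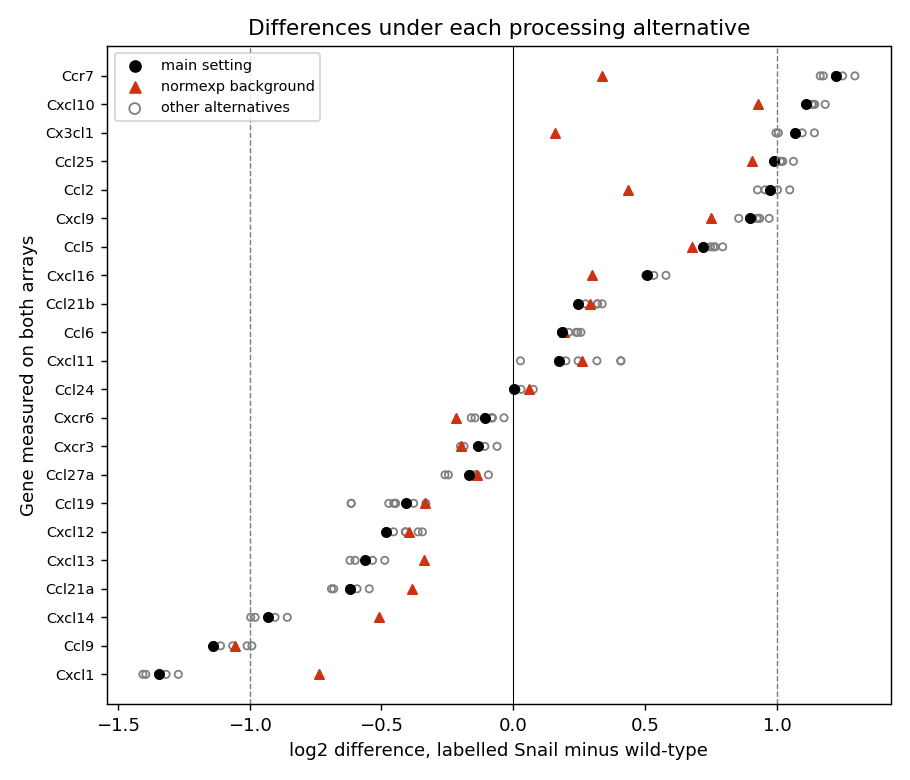
log2 difference, labelled Snail minus wild-type, of 22 measured genes in the main setting (black), with normexp (red triangles) and in the other alternatives (open circles), with 2-fold as dashed lines. Ccr7 shifts from 1.22 to 0.34 and Cx3cl1 from 1.07 to 0.16 with normexp, while Ccl25, Ccl5 and Ccl9 stay close to their main values.

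Several members lie in gene clusters, and neighbours differed from each other. On chromosome 5 Cxcl9, Cxcl10 and Cxcl11 lie within 92752191 to 92788699 (mm9), and all 3 were above 0, Cxcl11 by less than 2 scanner errors. The cluster from 91190490 to 91334593 on the same chromosome holds Cxcl1, Cxcl2, Cxcl3, Cxcl5 and Cxcl15, of which Cxcl1 alone was seen. On chromosome 11, from 83339296 to 83478111, Ccl5 was higher, Ccl9 lower and Ccl6 within its error, while Ccl4 was seen in the library labelled Snail alone and Ccl3 on neither array. In the neighbouring cluster from 81850650 to 81990227, Ccl2 and Ccl7 were seen and Ccl1, Ccl8, Ccl11 and Ccl12 were not.

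Promoter windows of 250 bases before the start site were read for 42 of the 57 genes (RefSeq, GRCm38.p6), on both strands, for the letters GGGA and CC with any 4 bases between them, a core shared by many NF-kB sites, and for TTTC and TTTC with any 2 bases between them, a core of interferon-stimulated response elements. The first motif was in 17 of these 42 genes, and the second in 3. Of all 32851 windows, 17.6% held the first and 2.98% the second. Some genes have more than 1 window, so counts of genes and shares of windows are unlike measures. Among the 22 genes detected on at least 1 array that have a window, 9 (40.9%) held the first and 3 (13.6%) the second. The latter were Ccl19, Cxcl10 and Cxcl14. Cxcl9 and Cxcl10, which were higher, and Cxcl1, which was lower, are shown because the NF-kB letters occur in all 3, with matches in capitals.
Cxcl9, chr5:92328190-92328219, minus strand, 140 to 111 bases upstream: tctgagagtaGGGTTTTCCCcaggacgatc
Cxcl10, chr5:92348973-92349112, minus strand, 223 to 84 bases upstream: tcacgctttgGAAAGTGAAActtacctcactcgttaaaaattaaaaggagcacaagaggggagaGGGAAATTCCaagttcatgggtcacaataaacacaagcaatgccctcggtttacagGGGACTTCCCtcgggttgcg
Cxcl1, chr5:90891145-90891194, plus strand, 100 to 51 bases upstream: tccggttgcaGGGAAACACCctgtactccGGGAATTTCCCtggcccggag
In Cxcl10 the first capitals are the interferon motif on the reverse strand and the other capitals are 2 matches of the NF-kB motif. In Cxcl1 there are 3 matches of the NF-kB motif, of which 2 overlap in the second run of capitals. Genes with the NF-kB letters thus lay on either side of 0. A match is a sequence description and shows no binding.

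Other genes of the chemokine system were read from lists of known components, chosen with earlier results of these data known. Of 7 further measured gene names, such as atypical receptors and the platelet chemokine Pf4, 0 were past 2-fold in either direction, with a median of 0.15. The platelet chemokine Ppbp was detected in the library labelled Snail alone, at 14.1% against 6.50%, with a bound of at least 2.17-fold. Under the name Ackr4, an atypical receptor was also seen only there, at 5.61% against 2.86%, which has no fold. The array also lists this gene under its earlier name, Ccrl1, measured at 10.3% and 11.4%, a difference of 0.15 ± 0.28. The gene was thus detected on both arrays under 1 of its 2 names. Ackr1, an atypical receptor that takes up inflammatory chemokines, was at 16.1% and 30.8%, a difference of 0.94 ± 0.23, and Pf4 was at 51.5% and 78.3%, a difference of 0.60 ± 0.21. Of 24 measured signalling components downstream of the receptors, 1 (Fgr) was past 2-fold upward and 2 downward, near the 3.96% and 6.34% of all measured genes. The Src-family kinase Fgr was 3.07-fold higher. Rgs16, which shortens the signal of G proteins, was 19.4-fold lower, from 138.7% in wild-type liver to 7.14%, and the kinase Ptk2b was 2.69-fold lower.

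Among 17 measured NF-kB components and inducers of chemokine transcription, 2 were past 2-fold upward and 0 downward, beside 3.96% and 6.34% of all measured genes, with a median of 0.38. Those were Relb, an NF-kB subunit, at 3.50-fold, and Tnfaip3, an NF-kB-induced inhibitor of the pathway, at 2.21-fold. The inducing cytokine Il1b was at 10.7% and 19.0%, a difference of 0.84 ± 0.10, while Tnf, Il1a, Il6 and Ifng were detected on neither array. Of 6 measured genes that cleave or hold chemokines, 3 were past 2-fold downward and 0 upward, beside 6.34% and 3.96% of all measured genes. The protease Dpp4, which trims Cxcl10 and other chemokines, was 3.76-fold lower, at 448.4% and 119.1%. Sdc4 and Sdc1, heparan sulfate proteoglycans that bind chemokines at the cell surface, were 4.05-fold and 2.41-fold lower.

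Markers of the leukocytes that carry the receptors are given beside these values. The 4 measured markers of all leukocytes were above 0, between 0.14 and 0.59 with a median of 0.36, and their summed scaled signal was 6.21 and 7.39 times the 75th percentile. Over 8 measured markers of Kupffer cells and macrophages the median was 0.09, with Marco 2.83-fold higher and Clec4f at 0.15. Of 5 genes in the monocyte list 3 were measured, Itgam at 0.28, Plac8 at -0.40 and Ly6c1 at 2.90-fold higher. Ly6c1 is not specific to monocytes. Chil3 and F13a1 were detected in the library labelled Snail alone, with bounds of at least 4.64-fold and 1.32-fold. Of 6 measured T cell markers 4 were above 0 and 2 below, with a median of 0.11. Cd4 at -1.36 was the one past 2-fold, Cd2 was at 0.62 and Cd3e at -0.20, and Cd8a was detected on neither array. Dendritic cell markers had 3 of 5 measured genes above 0 and a median of 0.40, from Itgax at 1.82 to Siglech at -0.17. B and plasma cell markers also had 3 of 5 above 0, with a median of 0.48, from Ms4a1 at 1.25 to Cd79a at -0.77. The part of these markers in the chemokine and receptor values was not tested.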

How the data were processed

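The intensity values are scanner output, made by the authors with Agilent Feature Extraction 9.5.1.1 according to the submitters' processing notes. Per the file headers, background was subtracted and each array detrended, with no scaling between arrays. The 2 arrays shared 1 slide and 1 scan. Each held 43020 non-control spots, and 287 marked as outliers on either array were left out. No spot was saturated. The number of arrays limits the precision. In the deposited value table, whose scale no source used here states, the intensity was linear, with a median of 17.3 in both columns. It served as an alternative.

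Computed here were log2 values of the deposited processed signals, less the 75th percentile of the array, averaged over spots of a probe and then over those probes of a gene that the software called well above background on each array. A gene seen on 1 array has a bound: its scaled signal there, over the dim array's lowest signal well above background or, if higher, the probe's own. Groups were taken from the genotype. Every member could be named, and other genes only from the lists. Members and lists were chosen with earlier results of these data known. The values of 1 receptor are not reported here, though it stays in counts and medians. Of the 57 genes, 56 were matched to RefSeq, all but Cxcl11. The calculation was tested on simulated data. Alternatives were 2 other scalings, normexp (limma 3.58.1, R 4.3.3), a signal of at least 50, no filter, the software's positive-and-significant call, the brightest probe and the value table. After seeing the data, leaving out repeat-like probes and setting the median difference to 0 were added.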

Additional observations from a re-analysis of the deposited data

How the results depend on the processing

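Of the 23 measured ligands and receptors, 22 kept the sign of their difference in every alternative that gave them a value, and 1 receptor did not. For a gene read by 1 probe, the filter, call, brightest-probe and repeat alternatives return the main value or none. The percentile over probes seen on both arrays and the median set to 0 add the same amount to every gene. A kept sign in these alternatives therefore says little, and Ccl24, at 0.00, counts as kept. Ligands at least 2-fold higher numbered 2 in the main setting, 4 with the percentile over probes seen on both arrays, with the positive-and-significant call and with the median difference set to 0, 1 with a signal of at least 50 and 0 with normexp. Ligands at least 2-fold lower numbered 2, and 1 with quantile normalization, normexp or a signal of at least 50. Receptors at least 2-fold higher numbered 1, 0 with normexp or a signal of at least 50, and 4 with the positive-and-significant call, which also gave 1 receptor lower, 3 receptors seen only in the library labelled Snail and 2 ligands only in wild-type liver. The ligand median of 0.17 was 0.027 with the brightest probe and -0.47 without a filter. The receptor median of 0.15 was -0.12 with normexp, -0.080 with a signal of at least 50 (1 receptor left), -0.43 without a filter and 0.70 with the positive-and-significant call. Without a filter the 25 members detected on neither array enter as well. Signals below the lowest detected level of their array, 5.94% for wild-type and 4.27% for the other, were then raised to it. A gene raised on both arrays thus gets the gap between these levels, -0.47, whatever its expression. That gap was also the median of all 31894 genes, so the medians without a filter describe no shift. The ligand median minus the receptor median, 0.03, was 0.15 with quantile normalization, 0.14 with the value table, 0.28 with normexp, 0.26 with a signal of at least 50, -0.49 with the positive-and-significant call and -0.13 with the brightest probe. Apart from the genes that a filter adds or takes away and the raised dim signals, the cause was not tested. Over all genes, those at least 2-fold higher and lower numbered 613 and 980, and 297 and 572 with normexp. No paired analysis was possible because each group has 1 array. Signals near background limit the receptors, of which 4 of 20 were measured, and 1 array per group limits every value.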
